A study of Mus musculus with 7 samples.

Results

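The 4 myogenic regulatory factor (MRF) genes, Myf5, Myf6, Myod1 and Myog, were examined for chromatin accessibility in freshly isolated muscle stem cells (MuSCs) by ATAC-seq. Each gene was taken with 50 kb of flanking sequence on both sides of its RefSeq span, widened to 150 kb upstream of Myf5 and Myf6 and cut to 30 kb upstream of Myod1. Myf5 and Myf6 lie next to each other and share 1 window, so there were 3 loci, which together spanned 397 kb. Broad peaks of all libraries were merged where they overlapped by at least 1 bp. The 3 windows held 42 of the 95163 merged regions of the whole data set: 18 at the Myf5/Myf6 locus (chr10:107432908-107644723), 10 at the Myod1 locus (chr7:46346474-46429092) and 14 at the Myog locus (chr1:134240004-134342548), all on mm10. Regions are numbered below by position along the chromosome within each locus.

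The MRFs are basic helix-loop-helix transcription factors that pair with E proteins, bind the short DNA motif called an E-box and switch on muscle genes. Myf5 and Myod1 commit cells to the muscle lineage and mark myoblasts, Myog drives terminal differentiation, and Myf6 (also called Mrf4) acts both early in the embryo and in mature fibers. In adult muscle the quiescent MuSC carries Pax7, many MuSCs have already transcribed Myf5, Myod1 protein appears as the cell activates, and Myog comes later, when myoblasts leave the cell cycle.

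The libraries compared 4 Nedd4L-cKO with 3 WT mice. For each library, 5000 MuSCs were sorted from the hindlimb muscle of a male mouse of 5 to 6 weeks. Nedd4L encodes an E3 ubiquitin ligase, and in the cKO an exon of the floxed gene was deleted by a Cre driven from the Pax7 locus. The deletion therefore arises in cells that express Pax7 and is carried on into their progeny, myofibers included. Whether the WT mice carried Cre or floxed alleles is not given in the sources used here. Of 28353538 to 42431517 tags (single read ends) read at peak calling, the libraries kept 14429374 to 20084685 and gave 69302 to 79158 peaks. The redundant rate in the file headers was 0.45 to 0.58 and was highest in Nedd4L-cKO replicate 1. WT replicate 3 was the only library on the second sequencing lane named in the file headers, so a lane effect and that library cannot be told apart. A change in the share of cells with an open site and a change in openness per cell cannot be told apart in such bulk libraries.

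Promoter calls at cell type markers gave a mixed picture. A peak overlapped the promoter (transcription start ± 1 kb) of 7 of 7 MuSC markers in every library. Among them were Pax7, the MuSC transcription factor, and Cdh15, the M-cadherin of the MuSC niche. Over all coding genes, 63.6% had such a peak in all 7 libraries, so a call alone separates cell types weakly. No library had a promoter peak at any of 4 blood markers, at the endothelial genes Pecam1 and Cdh5, at Pdgfra and Ly6a of fibro-adipogenic cells, at Sox10 of Schwann cells, or at the pluripotency gene Pou5f1. Other members of these lists were called in all libraries: Kdr and Tek (2 of 4 endothelial markers), Cd34 (1 of 4 fibro-adipogenic), 3 of 4 pericyte and smooth muscle markers, 2 of 3 Schwann markers and 2 of 4 myofibre markers. The remaining Dcn, Rgs5, Ckm and Myh2 were called in 1 to 6 libraries.

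The sequences of an early-acting factor, Myf5, and a late-acting one, Myog, show the DNA behind the promoter signal. They are the 250 bases before the RefSeq start, on GRCm38.p6 (the assembly of mm10), for Myf5 at chr10:107486135-107486384 on the minus strand and for Myog at chr1:134289754-134290003 on the plus strand. Capitals mark every match, on either strand, to the general E-box CANNTG, to the MEF2 core CTANNNNTA (MEF2 proteins are partners of the MRFs) or to the MEF3 motif TCAGGTT, an element found in muscle promoters.
Myf5: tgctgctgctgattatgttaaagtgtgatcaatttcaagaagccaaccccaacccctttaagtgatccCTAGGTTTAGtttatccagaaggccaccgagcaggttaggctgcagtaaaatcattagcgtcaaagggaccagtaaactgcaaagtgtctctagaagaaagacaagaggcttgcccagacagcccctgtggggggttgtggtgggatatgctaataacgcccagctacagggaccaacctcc
Myog: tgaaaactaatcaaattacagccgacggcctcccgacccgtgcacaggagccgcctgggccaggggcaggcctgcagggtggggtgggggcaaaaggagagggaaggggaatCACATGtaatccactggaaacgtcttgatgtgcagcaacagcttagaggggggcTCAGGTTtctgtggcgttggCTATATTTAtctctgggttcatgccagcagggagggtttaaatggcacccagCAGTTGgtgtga

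The Myog promoter held 2 E-boxes, CACATG beginning 138 bp and CAGTTG beginning 12 bp upstream of the start. It also held 1 MEF2 core, CTATATTTA at 64 bp, and 1 MEF3 motif at 84 bp. The Myf5 promoter held no E-box and no MEF3 motif in this window. Its MEF2 core letters matched at 182 bp upstream on one strand and, overlapping it, at 181 bp on the other. Among 32851 RefSeq promoters of the same length, 66.2% held CANNTG, 19.0% the MEF2 core and 3.49% the MEF3 motif. The E-box variant CAGCTG, a subset of CANNTG, was in 13% of all promoters and in neither of these. A match is a description of letters and not a bound site. The starts of both printed promoters lay inside a narrow peak, the stricter call that MACS2 makes within a broad peak, in 7 of 7 libraries.

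All 4 MRF promoters were called accessible in all 4 Nedd4L-cKO and all 3 WT libraries, whereas 63.6% of the 19666 protein-coding genes with a mapped start had a promoter peak in all 7 libraries. When only peaks with a −log10 q of at least 5 were kept, Myf6 and Myod1 were still called in all 7, while Myf5 was called in 3 Nedd4L-cKO and 3 WT libraries and Myog in 1 of each. At Myf5 (span chr10:107482908-107486927, minus strand) the region covered chr10:107484138-107488863 and with 4726 bp was far longer than the median of 1545 bp over regions at coding promoters. At Myod1 (chr7:46376474-46379092, plus strand) it covered chr7:46375768-46377837. At Myog (chr1:134290004-134292548, plus strand) it covered chr1:134289522-134292427, which also overlaps Myoparr, a long noncoding RNA gene at the Myog promoter. At Myf6 (chr10:107492848-107494723, minus strand) it covered chr10:107493172-107494065. That region lay inside the gene, 658 bp or more from the start at its outer end, and the Myf6 start itself was in no peak in any library. The Myod1 and Myog starts lay in a narrow peak in 7 of 7 libraries. The outer end of the Myf5 span lies 793 bp upstream of the start used for the printed sequence, and it was in a narrow peak in 3 of 7.

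The level of each promoter was read as a percentile within its own library, because the peaks were called separately for each library. Here 0 is the lowest and 100 the highest of the 53245 regions called in all 7 libraries. Pileup is the mean coverage of a peak by extended tags, and fold enrichment divides it by the local background, which MACS2 took from the same library over 10000 bp or over the genome, whichever was higher. The tags of the peak itself and of its neighbors are therefore part of the local background.

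By pileup the order was Myod1, Myf5, Myf6 and Myog. The Myod1 promoter was at the 93.5, 87.6, 97.4 and 95.8 percentile in Nedd4L-cKO replicates 1 to 4 and at 97.1, 96.4 and 90.6 in WT replicates 1 to 3. The Myf5 promoter varied least, with 83.5, 82.7, 85.7 and 84.4 in Nedd4L-cKO and 82.3, 82.6 and 84.1 in WT. The Myf6 region was at 62.3, 66.9, 68.0 and 74.6 in Nedd4L-cKO and at 73.7, 76.5 and 66.4 in WT. The values of Nedd4L-cKO and WT overlapped at each of these 3 promoters. The Myog promoter spread most, with 49.3, 43.7, 65.0 and 67.4 in Nedd4L-cKO and 77.2, 51.0 and 43.2 in WT, and its highest and lowest values were both WT. Myod1 stood above Myf5 and Myf5 above Myf6 in 7 of 7 libraries with no overlap of their ranges. Myf6 stood above Myog in 6 of 7 libraries, and their ranges (62.3 to 76.5 and 43.2 to 77.2) overlapped. Over the 11348 such regions at coding promoters the median was 81.1, so Myod1 and Myf5 stood above it and Myf6 and Myog below it.

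By fold enrichment the order was different: Myf6, Myod1, Myog and Myf5. The Myf6 region reached 39.7, 42.5, 39.2 and 51.1 in Nedd4L-cKO and 49.2, 65.5 and 46.9 in WT. The Myod1 promoter was at 15.5, 33.1, 28.0 and 19.1 in Nedd4L-cKO and at 19.0, 26.1 and 21.7 in WT. The Myog promoter was at 14, 21.0, 6.65 and 14.1 in Nedd4L-cKO and at 9.22, 4.11 and 8.63 in WT. The genotypes overlapped at each of these 3 promoters: at Myog, 3 Nedd4L-cKO values stood above all WT values and 1 lay within the WT range. The Myf5 promoter was at 3.21, 2.5, 3.75 and 2.86 in Nedd4L-cKO and at 2.92, 3.5 and 3.78 in WT, near the bottom of the scale in every library. Each promoter stood above the next in 7 of 7 libraries, although the ranges of Myod1 (15.5 to 33.1) and Myog (4.11 to 21.0) overlapped. All 4 medians lay below the median of 71.3 over coding promoters.

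**Figure D1:**
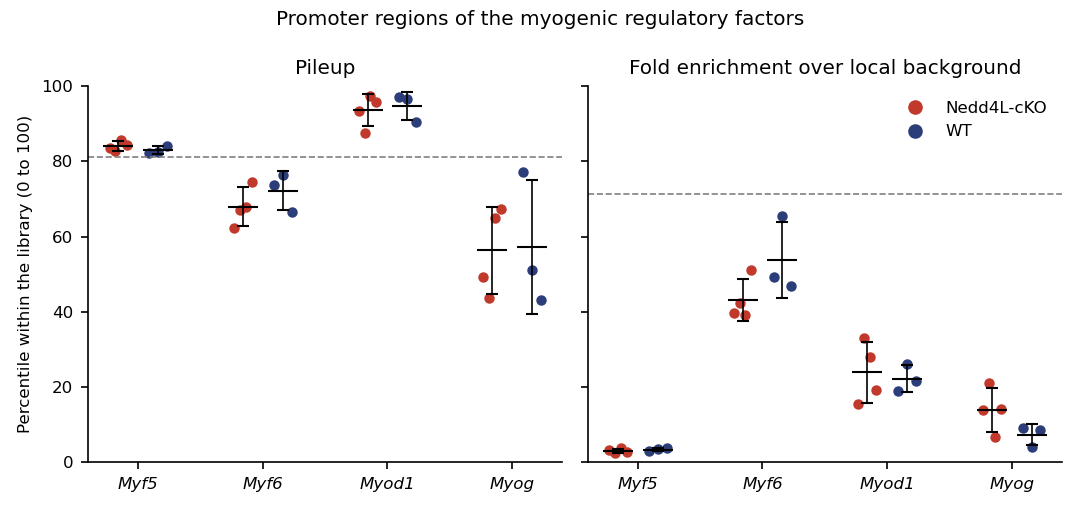
Percentile within the library (0 to 100) of the promoter region of each MRF gene, by pileup on the left and by fold enrichment on the right. Points are libraries (4 Nedd4L-cKO in red, 3 WT in blue), bars are mean ± SD and the dashed line is the median over regions at coding promoters (81.1 and 71.3); Myf5 lies at 82.3 to 85.7 by pileup and at 2.5 to 3.78 by fold, and the genotypes overlap at all 4 promoters in both panels.

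The local background, worked back from the pileup and fold of the same peak, differed between the promoters. It is therefore not a separate measurement, and a high pileup with a low fold gives a high value by construction. It was 8.62 times the genome-wide background at the Myf5 promoter (median of 7 libraries, range 7.72 to 8.87) and 8.89 times at Myod1 (6.71 to 9.90). It was 3.93 times at Myog (2.53 to 6.41) and 3.65 times at Myf6 (3.43 to 4.13). The median over coding promoter regions was 3.98 times and over the other shared regions 1.83 times. By this calculation the backgrounds at Myf5 and Myod1 were above the median over coding promoter regions. The fold itself was 2.46 to 2.69 at Myf5 with a pileup of 35.8 to 47.3, and 3.15 to 3.5 at Myod1 with a pileup of 40.5 to 63.2.

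**Figure D2:**
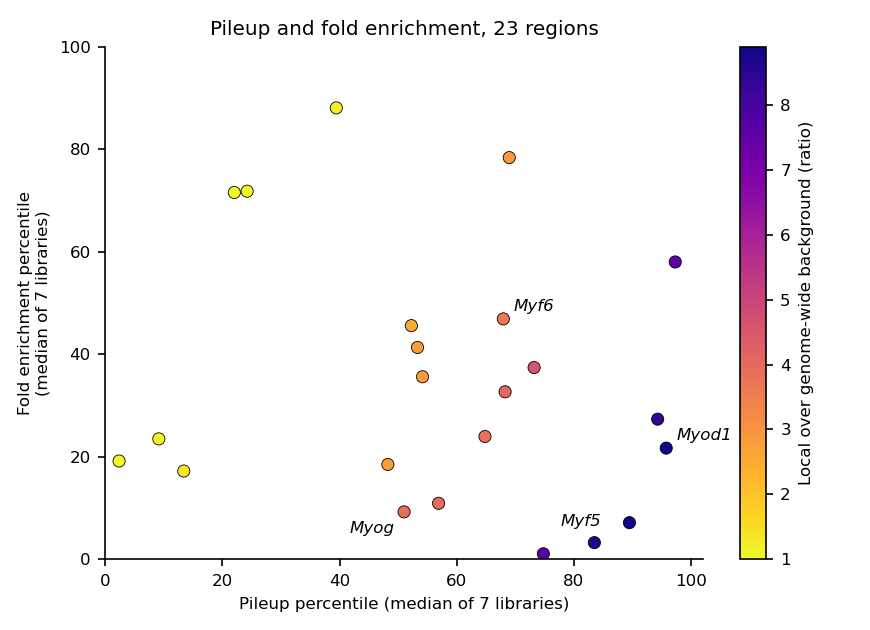
Median fold enrichment percentile against median pileup percentile of the 23 MRF regions called in all libraries, with the 4 promoters named. Colour is the ratio of local to genome-wide background, which is worked back from pileup and fold and is not a separate measurement. Myf5 and Myod1 sit at high pileup and low fold with a background ratio of 8.62 and 8.89, while the region with the highest fold percentile (88.1), far upstream of Myf5, has a ratio of 1.22.

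Across the 3 loci, 23 of the 42 regions (54.8%) were called in all 7 libraries, beside 56% of all merged regions. These were 8 of 18 at the Myf5/Myf6 locus, 5 of 10 at Myod1 and 10 of 14 at Myog. A further 14 regions were called in 2 to 6 libraries and 5 in 1 library only. No region was called in all Nedd4L-cKO and no WT libraries, or in all WT and no Nedd4L-cKO libraries. The share of all merged regions with such a pattern is not given here, so this count is a description and not a result about these loci.

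**Figure D3:**
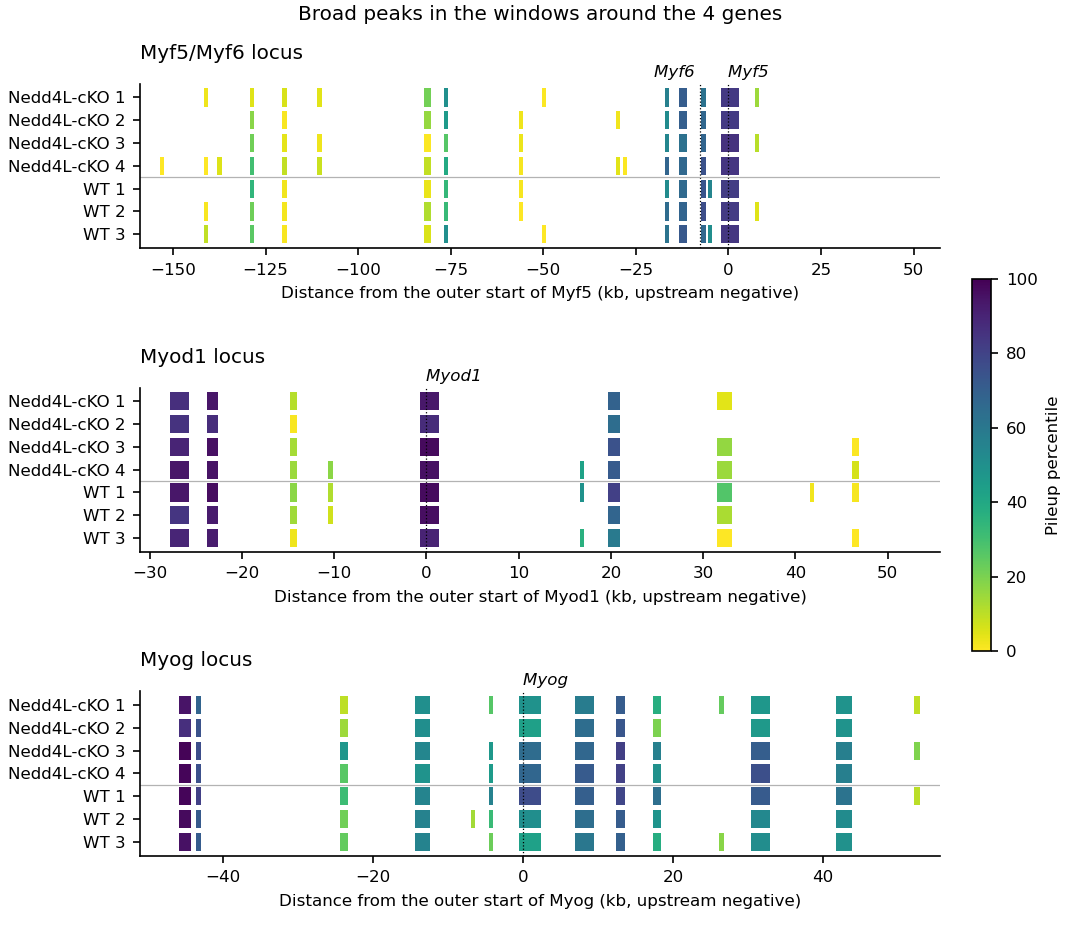
Regions of the 3 loci along the distance from the outer start of Myf5, Myod1 or Myog (kb, upstream negative), with 1 row per library. A box spans a merged region wherever that library has a broad peak in it, widened to a visible minimum. Darker colour stands for a higher pileup percentile. The dark boxes at the Myf5 and Myod1 starts, about 22 kb upstream of Myod1 and about 44 kb upstream of Myog are present in all 7 libraries. Among the paler boxes far upstream of Myf5, some are present in all 7 libraries and others are missing in part of them.

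The regulatory elements upstream of Myf5 known from transgenic mice were read through windows at set distances from the outer start. The window at 6 ± 1 kb covers the early epaxial enhancer, which acts in the first muscle progenitors of the somite, and overlaps the Myf6 gene. It held the Myf6 promoter region in all 7 libraries. It also held region 3 (chr10:107491732-107492123), called in WT replicates 1 and 3 and in no other library. Region 3 had pileup percentiles of 54.5 and 50.9 there, fold percentiles of 0.751 and 0.31 and −log10 q-values of 2.03 and 1.45, so both calls were weak. Counted from the Myf5 start used for the printed sequence, 793 bp downstream of the outer start, this window would end just short of the Myf6 promoter region and hold region 3 alone. The window at 57 ± 2 kb, which covers a limb enhancer, held region 10 (chr10:107542391-107543414). It was called in Nedd4L-cKO replicates 2, 3 and 4 and in WT replicates 1 and 2, at pileup percentiles between 0.287 and 2.74. The window at 110 ± 3 kb covers a far upstream enhancer of Myf5. It held region 13 (chr10:107597003-107597646), called in Nedd4L-cKO replicates 1, 3 and 4 and in no WT library. Its pileup percentiles were 4.50, 2.35 and 8.02, its fold percentiles 18.7, 15.4 and 40.1 and its −log10 q-values 2.08, 1.94 and 3.64. All 3 calls were thus low by pileup and below the stricter −log10 q of 5. Region 14, which was called in all 7 libraries, had −log10 q-values of 1.46 to 3.85. Of the 5325 regions called in exactly 3 libraries, 9.41% had all 3 calls in the Nedd4L-cKO.

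At Myod1 the window at 22 ± 3 kb, the place of the core enhancer that opens Myod1 in the embryo and in myoblasts, held region 2 (chr7:46352734-46353837). It was called in 7 of 7 libraries at nearly the level of the promoter. Its pileup percentile was 94.3, 87.2, 96.1 and 94.9 in Nedd4L-cKO and 96.7, 92.8 and 92.4 in WT. By fold it was at 30.7, 27.3, 29.4 and 20.5 in Nedd4L-cKO and at 20.1, 18.6 and 29.3 in WT. The genotypes overlapped on both scales. A neighboring region 1 (chr7:46348697-46350690), 25.8 kb upstream, was also called in all 7, at pileup percentiles of 84.6 to 94.4. The window at 5 ± 1 kb, the place of the distal regulatory region that acts in differentiated muscle, held no peak in any library. No peak says only that none was called there at this depth.

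The other regions of the Myf5/Myf6 locus fell into a near cluster and a far group. Region 5 (chr10:107498239-107500297), 3516 bp upstream of the Myf6 start, and region 6 (chr10:107503105-107503924) lay within the predicted gene Gm36177, and both were called in all libraries. Region 5 had pileup percentiles of 70.8, 70.2, 63.1 and 66.6 in Nedd4L-cKO and 65.8, 68.3 and 72.3 in WT. All 12 regions further upstream, from region 7 to region 18, lay within Ptprq, a gene of the phosphatase family that neighbors the locus, and 4 of them were called in all libraries. Their median pileup percentiles were between 0.253 and 39.4. Region 11 (chr10:107562825-107563485), 75.9 kb upstream of Myf5 and singled out after its values were seen, had the highest fold of all 23 shared MRF regions. Its fold percentile was 92.4, 86.5, 73.4 and 90.7 in Nedd4L-cKO and 88.1, 82.2 and 95.4 in WT, while its pileup percentile ran from 26.5 to 50.6.

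At Myog the region with the highest pileup was not the promoter. Region 1 (chr1:134244153-134245759), 44.2 kb upstream, had pileup percentiles of 94.6, 86.4, 99.0 and 98.6 in Nedd4L-cKO and 98.6, 97.3 and 95.5 in WT. Its nearest coding start was that of Adora1, an adenosine receptor gene, at 8696 bp. It ranked above the Myog promoter in pileup in every library. Region 2 (chr1:134246478-134247141) lay next to it, with pileup percentiles of 68.0 to 81.1 and fold percentiles of 0.73, 13.2, 0.538 and 1.5 in Nedd4L-cKO and 2.84, 0.778 and 1.04 in WT. Here Nedd4L-cKO replicate 2 stood apart from all other libraries. Downstream of Myog, 5 regions that lie within Ppfia4, a gene for a liprin scaffold protein, were called in all libraries, at median pileup percentiles of 48.2 to 73.2. The only neighboring coding gene with its start in one of the windows was Kcnc1, a potassium channel gene next to Myod1. Its promoter region (region 7, chr7:46396129-46397404) was called in all 7 libraries, at pileup percentiles of 59.2 to 80.9.

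The number of peaks in the windows addressed whether the loci as a whole gained or lost accessible sites. The libraries held 34, 28, 33 and 40 peaks in Nedd4L-cKO and 36, 32 and 35 in WT, or 33.75 ± 4.92 (SD, n = 4) and 34.3 ± 2.08 (SD, n = 3). All 3 WT counts lay inside the Nedd4L-cKO range. The means differed by −0.583 peaks, less than the SD of either genotype (two-sided exact permutation test over libraries, p = 0.914). At the Myf5/Myf6 locus the means were 12.75 ± 2.5 and 11.7 ± 0.577 (exact permutation p = 0.686). At Myod1 they were 7.25 ± 1.89 and 8.67 ± 1.53 (exact permutation p = 0.4), and at Myog 13.75 ± 1.26 and 14 ± 1 (exact permutation p = 1.00). For the bases covered by peaks, the exact permutation p was between 0.314 and 0.629 for the 3 loci and all loci together. The smallest p that 4 against 3 libraries can reach is 0.0286.

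**Figure D4:**
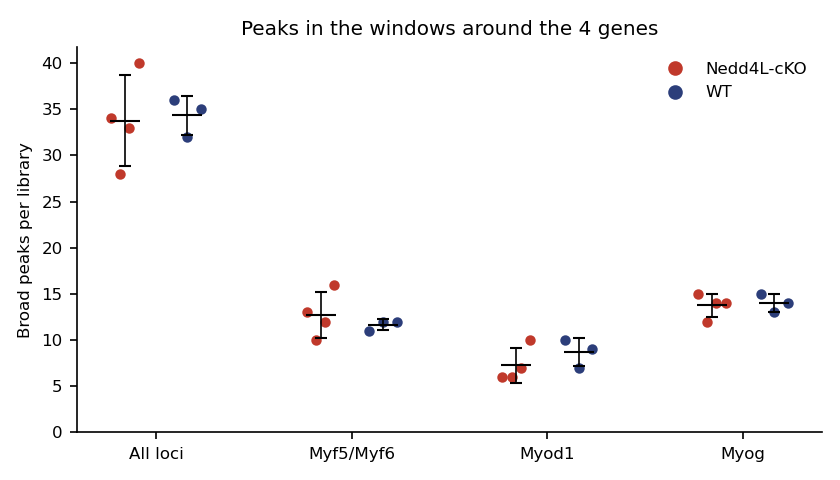
Broad peaks per library in the windows of all 3 loci together and of each locus (count, axis from 0). Points are libraries (Nedd4L-cKO red, WT blue) and bars are mean ± SD; the WT counts of 32 to 36 over all loci lie within the Nedd4L-cKO counts of 28 to 40.

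The ranks of the regions were then compared between genotypes with limma, fitted to all 53245 regions called in all libraries, on ranks turned into normal scores (units of about 1 SD of the ranks). By fold enrichment, 0 of the 23 MRF regions passed an adjusted p of 0.05 (limma, Benjamini-Hochberg over all regions, lowest adjusted p = 1.00), and 0% of all regions did. At an unadjusted p under 0.05 there was 1 of 23 (4.35%), beside 3.98% of all regions. By pileup, 0 of 23 passed (limma, lowest adjusted p = 1.00, 0% of all regions), and 0 of 23 had an unadjusted p under 0.05, beside 2.71% of all regions. By fold 13 of the 23 regions were higher and 10 lower in the Nedd4L-cKO, with a median difference of 0.0404 normal-score units against 0.0148 over all regions. By pileup 8 were higher and 15 lower, with a median of −0.0390 against −0.00126.

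At the 4 promoters no difference (Nedd4L-cKO minus WT) passed the adjusted threshold, and none reached 2 times its SE. By fold they were −0.0458 ± 0.158 (SE) normal-score units at Myf5, −0.275 ± 0.188 at Myf6, 0.0404 ± 0.196 at Myod1 and 0.361 ± 0.213 at Myog. By pileup they were 0.0446 ± 0.0834 at Myf5, −0.123 ± 0.120 at Myf6, −0.0843 ± 0.215 at Myod1 and −0.0353 ± 0.248 at Myog. The estimate at Myog was therefore positive by fold and negative by pileup. Single libraries moved these estimates: without WT replicate 2 the Myf6 difference was −0.126 by fold and −0.0589 by pileup, and leaving out 1 library at a time gave −0.0786 to −0.0170 by fold at Myf5. Of the 4, Myf5 was measured most precisely and Myog least precisely by pileup. At the Myod1 core enhancer window (region 2) the differences were 0.140 ± 0.178 by fold and −0.0467 ± 0.175 by pileup. None of these had an unadjusted limma p under 0.05.

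**Figure D5:**
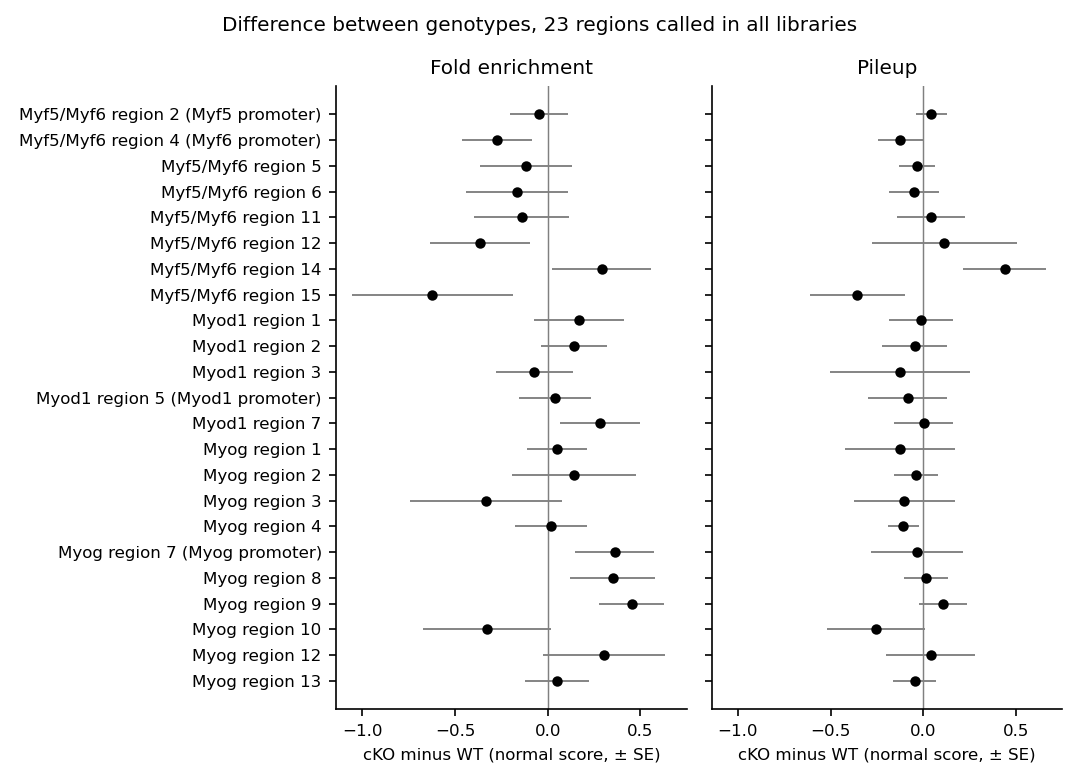
Difference between Nedd4L-cKO and WT in normal-score units (point, limma estimate; line, ± SE) for the 23 MRF regions called in all libraries, by fold enrichment on the left and pileup on the right. Most lines cross or come near 0, and Myog region 9 lies furthest above 0 by fold (0.453).

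The single region with an unadjusted p under 0.05 was Myog region 9 (chr1:134302344-134303557), 12.3 kb downstream of the Myog start within Ppfia4 and the predicted gene Gm32267. Its fold percentile was 48.3, 37.4, 46.5 and 47.0 in Nedd4L-cKO and 25.4, 23.2 and 36.0 in WT, so the genotypes did not overlap. The difference was 0.453 ± 0.177 (SE), with a limma adjusted p of 1.00. By pileup the same region was at 71.5, 73.2, 81.4 and 80.8 in Nedd4L-cKO and at 79.3, 71.3 and 69.7 in WT, which overlapped (difference 0.107 ± 0.129). It was the only one of the 23 whose fold percentiles did not overlap, beside 4.76% of all regions. By pileup the only one was Myog region 4 (chr1:134275609-134277579), 12.4 kb upstream and singled out after its values were seen, beside 3.6% of all regions. Its pileup percentile was 50.6, 51.2, 54.2 and 48.5 in Nedd4L-cKO and 55.0, 55.8 and 55.2 in WT (difference −0.107 ± 0.0829). Of the 23 regions, 1 on each scale is close to the share over all regions, and the 2 estimates have opposite signs.

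By pileup, the smallest limma p before adjustment, upward and downward, belonged to 2 regions far upstream of Myf5, and for a lower fold it belonged to the Myf6 promoter region, all 3 short of the 0.05 threshold. Region 14 (chr10:107606285-107607370), 119.4 kb upstream, had pileup percentiles of 6.19, 1.17, 4.29 and 9.27 in Nedd4L-cKO and 2.34, 1.86 and 0.852 in WT (difference 0.441 ± 0.223). Region 15 (chr10:107615222-107615838), 128.3 kb upstream, had fold percentiles of 20.2, 57.5, 63.8 and 89.7 in Nedd4L-cKO and 91.6, 71.6 and 74.2 in WT (difference −0.622 ± 0.432). By pileup region 15 had a difference of −0.355 ± 0.255. These values rest much on single libraries: the fold difference was −0.263 without Nedd4L-cKO replicate 1, −0.366 without WT replicate 1 and −0.963 without Nedd4L-cKO replicate 4, and the pileup difference was −0.128 without Nedd4L-cKO replicate 1. In both regions the genotypes overlapped.

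The genes that act around the MRFs were read by the same promoter rule. Of 49 such genes, 37 had a promoter peak in all 7 libraries, 5 in some and 7 in none, beside the 63.6% of coding genes called in all. Of the 10 upstream regulators, 9 were called in all libraries, with a median pileup percentile of 85.8. Pitx3 (97.0), a homeobox factor of the muscle lineage, was highest. Pax3 (64.7), the paired-box relative of Pax7, and Six4 (69.4) were lowest, and Tbx1 had no peak. All 11 inhibitors of MRF activity were called in all libraries. Id3 (99.4) and Id2 (98.6), which sequester E proteins, were highest by pileup, and Twist1 (12.7) and Twist2 (43.2) lowest. By fold, Id3 (median percentile 0.061) and Id2 (5.12) instead stood below Twist1 (17.8) and Twist2 (51.5).

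Of the 8 E protein and MEF2 partners, 5 were called in all libraries. Mef2d (99.1) and the E protein gene Tcf3 (94.5) were highest. Smarcd3 (34.2), a chromatin-remodeling subunit that binds Myod1, was low, Mef2c was called in 2 libraries at a median of 2.39, and Mef2a and Srf had no peak at the outer start used here. Of the 20 muscle target genes, 12 were called in all libraries. Cdh15 (99.1) and Mylpf (98.8), a fast myosin light chain gene, were highest. Ckm (6.25), the muscle creatine kinase gene, and Myh8 (5.71), the perinatal myosin gene, were called in 5 libraries each and were lowest, and Mymx, Myh3, Myl1 and Cdkn1a had no peak. The outer end of a gene's span can be a minor start, so a promoter without a peak here may have one at another start of the same gene. No promoter region in the 4 lists had an adjusted or unadjusted limma p under 0.05 by fold or by pileup.

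For each MRF promoter the most similar coding promoters were found over 14 values, the fold and pileup percentiles in 7 libraries, among 12491 genes. The closest to Myf5 were Akt1, Adamts14 and Thra, which differed from it by 1.46, 1.41 and 1.75 percentile points per value on average. Csdc2, Macrod1 and Glul were closest to Myod1 (2.81, 3.10 and 3.35 points). Those closest to Myf6 were Abr, Ubap2l and 4933434E20Rik (5.01, 4.80 and 4.80 points), the last pair sharing 1 region. Foxb2, Tal1 and Flrt1 were closest to Myog (5.08, 5.73 and 5.63 points). No MRF was among the 3 closest genes of another.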

How the data were processed

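ATAC-seq peaks of 7 libraries (4 Nedd4L-cKO, 3 WT, after the genotype label) were used. Per the submitters' processing notes and the study's methods, reads were trimmed (Trimmomatic 0.39), aligned to mm10 (BWA 0.7.17), filtered for mapping quality and freed of duplicates (Picard 2.26.3). Per the file headers, broad peaks were called for each library alone with MACS2 2.2.7.1, with no control, a tag shift of −100 bp, an extension to 200 bp, q cutoffs of 0.1 (broad) and 0.05 (narrow) and 1 tag kept per position. The deposited pileup is a signal that moves with depth, the ratio called fold enrichment was deposited relative to the library's own background, and the authors gave p-values and q-values as −log10. The fold follows (pileup + 1)/(background + 1), with a pseudocount of 1. Each run had its own depth and background, so libraries were compared only by calls and ranks.

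The members and gene lists were chosen with earlier results of these data known. Some listed genes enter the counts and are otherwise not reported here. A region took the highest peak of each library, and percentiles and normal scores were computed among 53245 regions. limma 3.58.1 (R 4.3.3; genotype alone, Benjamini-Hochberg) was tested on simulated data first. Single values were compared by exact permutation over 35 splits (Python 3.11.15, scipy 1.17.1). Gene spans were RefSeq on GRCm38.p6, with strands from GENCODE by symbol, which gave a start for 19666 of 21887 coding genes. Exons and introns were not assigned. Printed promoters came from RefSeq, where 2 of the 4 genes matched. Regions named were those at the promoters and at windows on known elements, the 2 with the highest pileup per locus, those with the lowest limma p per ranking and direction, and those called in all libraries of 1 genotype alone. Replicates are separate mice according to the study. The limits of 4 against 3 libraries apply throughout, and each percentile rests on 14429374 to 20084685 tags.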

Additional observations from a re-analysis of the deposited data

Results flagged for a closer look

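Among 30 measures of the Nedd4L-cKO libraries (percentiles of the named regions, peak counts and covered bases), 2 had a library that stood further from its 3 neighbors than Dixon's 95% criterion allows, and chance alone flags about 1 in 20 such groups. At Myog region 2 the fold percentile of Nedd4L-cKO replicate 2 was 13.2, with the others at 0.538 to 1.5. At Myog region 9 the fold percentile of the same library was 37.4, with the others at 46.5 to 48.3, so that the lowest Nedd4L-cKO value there is an isolated one. That library also had the lowest number of peaks in the MRF windows, 28.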

How the results depend on the processing

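Keeping only peaks with a −log10 q of at least 5 left 2 of the 4 promoters called in all libraries (Myf6 and Myod1), with Myf5 missing 1 Nedd4L-cKO library and Myog called in 1 library of each genotype. It also left 11 of the 42 MRF regions called in all libraries (25.2% of all merged regions), and 13 (37.6%) when a peak had to cover most of the region (0.5 or more of its length). The difference in peak number turned to −1.08 at Myf5/Myf6 and to 0.250 at Myod1 with the −log10 q of 5, and at Myog to 0.167 with narrow-peak support and to 0.0833 with equal peak numbers per library. Leaving out 1 library at a time gave −2.67 to 1.33 peaks over all loci and −0.75 to 0.333 at Myog, positive without Nedd4L-cKO replicate 2 and without WT replicate 1. These smaller designs cannot reach 0.05 (smallest exact p of 0.0667 without a WT library and 0.1 without a Nedd4L-cKO library), so their p-values say nothing about stability. The 0 limma calls stayed 0 in all settings, and regions with an unadjusted p under 0.05 numbered 0 to 2 by fold and 0 to 1 by pileup when 1 library was left out. Over those same fits the fold difference ranged from −0.0561 to 0.136 at the Myod1 promoter, −0.237 to 0.0896 at Myf5/Myf6 region 5 and −0.176 to 0.301 at Myog region 2. The pileup difference ranged from −0.262 to 0.0584 at the Myod1 promoter, −0.221 to 0.237 at the Myog promoter, −0.124 to 0.0843 at Myod1 region 2, −0.0741 to 0.0187 at Myf5/Myf6 region 5, −0.299 to 0.113 at Myog region 1 and −0.0955 to 0.0633 at Myog region 2. The cause of these changes was not tested. At Myog region 9 the fold difference stayed positive, at 0.379 to 0.566. The Myf6 promoter kept its sign at −0.363 to −0.126 by fold and −0.208 to −0.0589 by pileup, as did Myf5/Myf6 region 15 at −0.963 to −0.263 and −0.507 to −0.128.

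Deviations of same-numbered libraries correlated at −0.123, 0.0330 and −0.122 by fold and at −0.218, 0.0978 and −0.241 by pileup. These values gave no clear sign of pairing by replicate number. They cannot show whether the samples were prepared in pairs, because differently numbered libraries were not compared. A replicate block also drops Nedd4L-cKO replicate 4, which has no partner. With it the peak difference over all loci was −2.67 (exact sign-flip p = 0.25, the smallest that 3 pairs can give), limma called 0 regions on either scale, and the fold difference at Myf5/Myf6 region 5 turned to 0.0896. Leaving out Nedd4L-cKO replicate 4 without any block gave the same −2.67 and 0.0896. Leaving out WT replicate 3 is also the comparison within the lane that holds both genotypes.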
